A study of Mus musculus with 3 samples.

Results

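The nuclear genes of mitochondrial complex I and of the mitochondrial ribosome were examined in a map of TBX5 binding in the fetal mouse lung. Members were all RefSeq protein-coding mouse genes whose symbol begins with Nduf, Mrpl or Mrps followed by any character, 127 of the 21631 protein-coding genes on the 19 autosomes and chromosome X of build mm10. They were 49 Nduf genes and 78 Mrp genes (49 Mrpl and 29 Mrps). TBX5, a T-box transcription factor of heart, forelimb and lung mesenchyme, had been mapped by ChIP-seq, the sequencing of DNA precipitated with an antibody to the protein, in CD-1 embryos at E14.5. The series held 2 TBX5 ChIP libraries, each from 1 whole lung, and 1 input library of the same stage, with no genetic change or treatment named in the labels. The titles of all 3 name lung, while the source label of ChIP library 2 and that of the input say heart. The data were 1 list of 28381 peaks for the whole series. Values of single libraries, their depth and the spread between the ChIP libraries are therefore unknown.

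Complex I (NADH:ubiquinone oxidoreductase) is the entry point of electrons from NADH into the respiratory chain. Its catalytic core is made partly from mitochondrial and partly from nuclear genes, around which nuclear-encoded supernumerary subunits are placed with the help of assembly factors. The mitochondrial ribosome, whose proteins are all made from nuclear genes, translates the membrane subunits of complex I and of the other respiratory complexes that mitochondrial DNA encodes. Both groups are active in nearly every cell, and NRF1, YY1 and the ETS-family factor GABP are known regulators of many of their promoters.

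A TBX5 peak lay at a gene end of 52 of the 127 members, and the Nduf and Mrp groups had nearly the same share. A gene-end peak is one whose summit lies within 1 kb of either outer base of the annotated gene. Of the Nduf genes, 21 of 49 had one (42.9%, exact 95% binomial interval 28.8 to 57.8%), and of the Mrp genes 31 of 78 (39.7%, 28.8 to 51.5%). Over all protein-coding genes the share was 22.6% (4880 of 21631). The Nduf share minus the Mrp share was 3.11 percentage points, with a Newcombe 95% interval from −13.9 to 20.3 points. Intervals cover counting error only, no test was made between the groups, and the interval of the difference includes 0. Among the 14191 peaks with the higher −log10 q, the order turned, with 14.3% of Nduf and 19.2% of Mrp genes.

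By role, the core subunits of complex I carried gene-end peaks most often and the assembly factors least often. Of the 7 nuclear core subunits, 6 had one, and Ndufs3 did not. Of the supernumerary subunits, 13 of 32 had one (40.6%). Of the 8 Nduf assembly factors, 1 had one, Ndufaf6. Of the Ndufa4 and Ndufa4l2 pair, whose founding member is now placed in complex IV, Ndufa4 had one. The large and small mitoribosomal subunit genes had 19 of 49 (38.8%) and 12 of 29 (41.4%). The counts within complex I are small: the exact interval is 42.1 to 99.6% for the core and 0.316 to 52.7% for the assembly factors, so the 2 intervals overlap.

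**Figure D1:**
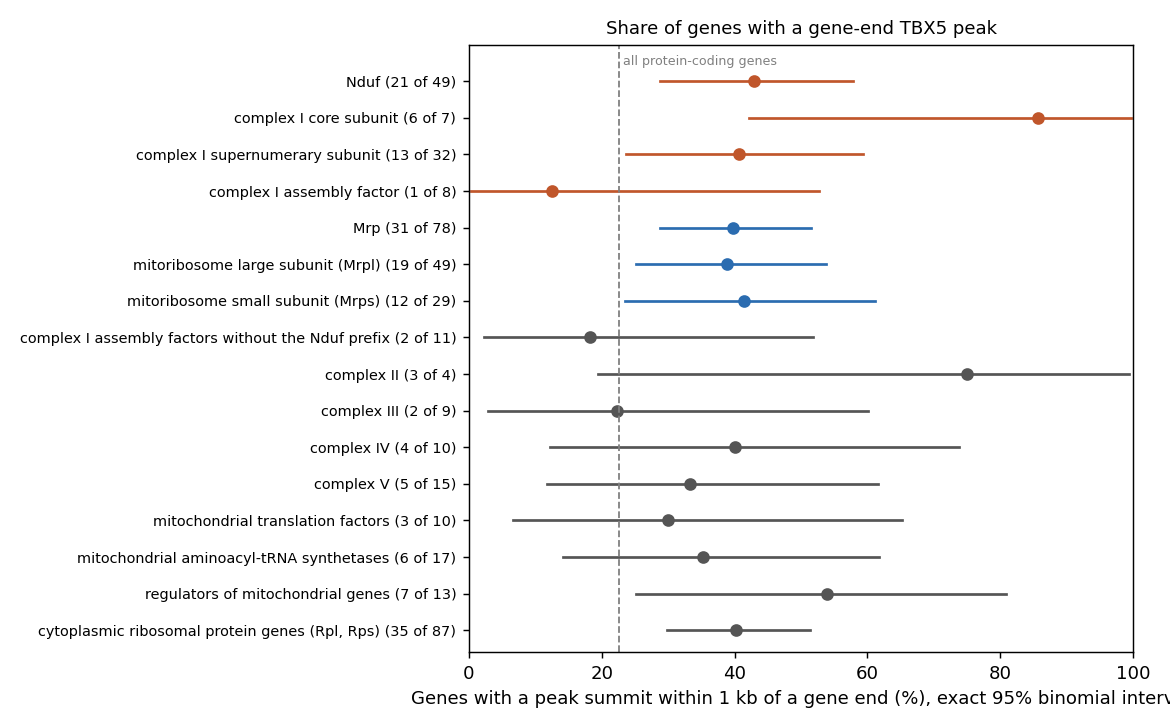
Percentage of genes (x axis) with a peak summit within 1 kb of either gene end, for each role and each related gene list (y axis, with counts), as points with exact 95% binomial intervals. The dashed line marks all protein-coding genes (22.6%); the Nduf (42.9%) and Mrp (39.7%) points lie close to each other and to the cytoplasmic ribosomal protein genes (40.2%).

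The related lists of mitochondrial genes ran from 2 of 11 genes to 3 of 4, all on small counts. Among the other respiratory complexes, 3 of 4 complex II genes had a gene-end peak (Sdha, Sdhb and Sdhc), 2 of 9 of complex III, 4 of 10 of complex IV and 5 of 15 of complex V. Of the 11 complex I assembly factors without the Nduf prefix, 2 had one, Ecsit and Tmem126b. Of the mitochondrial translation factors 3 of 10, and of the mitochondrial aminoacyl-tRNA synthetases 6 of 17, had one. Of the 13 regulators of mitochondrial genes, 7 had one, among them Gabpa, Yy1 and Tfam, the packaging and transcription factor of mitochondrial DNA, while Nrf1 and Ppargc1a did not. The cytoplasmic ribosomal protein genes with their paralogues stood at 35 of 87 (40.2%), within the interval of either member group.

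Most gene-end peaks of the members were weak by the caller's own values, with a median fold near that of all gene-end peaks. The fold enrichment given by the authors' caller, a ratio to the local background, had a median of 5.54 over the 57 different gene-end peaks of the members (quartiles 4.46 and 8.23, range 2.73 to 20.3). Over all 4981 gene-end peaks it was 5.49 (quartiles 4.51 and 7.03), and over the whole list 6.27. The median was 5.38 for the 24 Nduf peaks and 6.09 for the 35 Mrp peaks, with 95% order-statistic intervals of 4.00 to 6.19 and 4.89 to 7.61 that overlap. Strong peaks here are the 5000 of the list with the highest −log10 q. A strong gene-end peak was found at 2 of 49 Nduf genes (4.08%) and 7 of 78 Mrp genes (8.97%), against 2.07% of all protein-coding genes. Counted by peak, 8.33% of the Nduf and 20% of the Mrp gene-end peaks were strong, against 8.21% of all gene-end peaks. The members with 2 gene-end peaks numbered 7 (3.56% of all protein-coding genes had 2 or more). Gene-end peaks at 10-fold or more were 2 of the Nduf peaks (8.33%) and 6 of the Mrp peaks (17.1%). Of all 4981 gene-end peaks, 8.65% were at or over 10-fold.

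**Figure D2:**
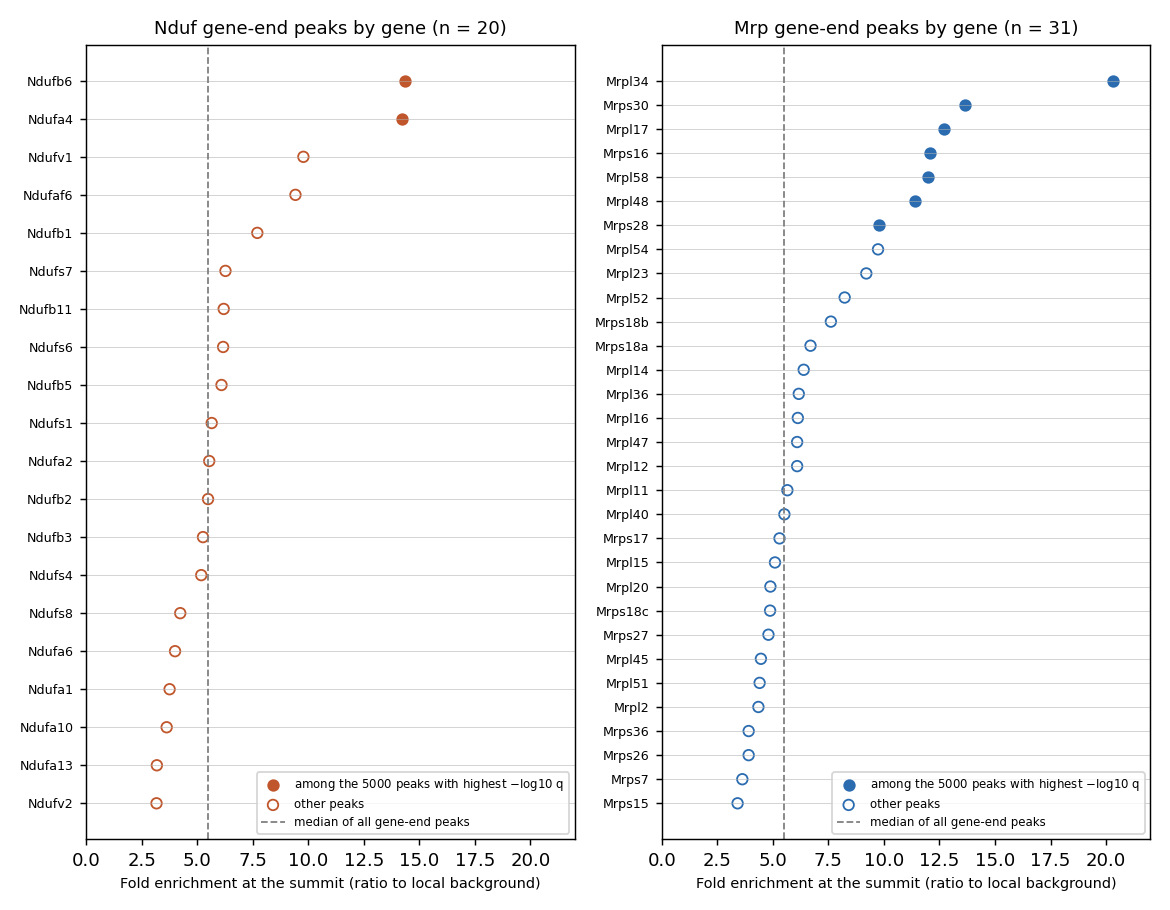
Fold enrichment at the summit (x axis, ratio to local background) of the gene-end peak with the highest −log10 q of the Nduf (left, 20 genes drawn) and Mrp (right, 31 genes) genes described here. Filled points are strong peaks, and the dashed line is the median of all gene-end peaks (5.49); Mrpl34 stands highest at 20.3 and most points lie between 3 and 10.

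The highest peak of either group lay between Mrpl34 and its neighbour. Mrpl34, a protein of the large mitoribosomal subunit, is on chromosome 8 from 71464926 to 71465753. Its peak, from 71464533 to 71465026, had 20.3-fold enrichment and a −log10 q of 64.5, rank 1032 of the list. The summit lay 236 bp before the start of Mrpl34 and also within 1 kb of the start of Abhd8, so it cannot be assigned to 1 of the 2 genes. It is the highest by both fold and −log10 q among the 57.

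The 2 strong Nduf peaks were at Ndufa4 and Ndufb6. Ndufa4, named as a complex I subunit and now placed in complex IV, had a peak on chromosome 6 from 11907645 to 11907991 (14.2-fold, −log10 q 42.4). Its summit was 356 bp before the start, and the start of Phf14, which encodes a PHD-finger protein, lies within 1 kb of it as well. Ndufb6, a supernumerary subunit of the membrane arm, had a peak on chromosome 4 from 40279252 to 40279578 (14.3-fold, −log10 q 37.6). That summit lay 9 bp before the listed start, with no other protein-coding gene end within 1 kb.

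The other 6 strong Mrp peaks differed in where they lay on the gene. At Mrps16 (12.1-fold, chromosome 14 from 20393432 to 20393933) and Mrpl17 (12.7-fold, chromosome 7 from 105810800 to 105811258) the summit was 124 and 2 bp before the start. An end of Cfap70 also lay within 1 kb of the Mrps16 summit, and no other protein-coding gene end near that of Mrpl17. At Mrpl48 (11.4-fold, chromosome 7 from 100607164 to 100607797) it was 215 bp after the nearest listed start, and the start of Rab6a, a small GTPase gene of the Golgi, lay within 1 kb too. At Mrps30 and Mrpl58 the strong peak was at the far end of the gene. The Mrps30 peak (13.7-fold, chromosome 13 from 118380264 to 118380671) was 383 bp from its last transcribed base, and a weaker peak of 5.65-fold lay 76 bp before its start. Mrps30 carries the small-subunit name, although the protein is now placed in the large subunit. Mrpl58, which encodes a peptidyl-tRNA hydrolase that rescues stalled mitoribosomes, had peaks of 12.0-fold (chromosome 11 from 115412670 to 115413127) and 9.02-fold just past its last base, 102 and 723 bp away, and none at its start. Mrps28, the longest member gene with a strong gene-end peak, had 9.77-fold (−log10 q 23.2) 132 bp from its end of higher coordinate (chromosome 3 from 8923385 to 8924083). The promoter table, the source of strand here, held no entry for Mrps28, so that end cannot be called its start or its last base.

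Promoter sequences are printed for members whose summit fell inside the 300 bases of RefSeq promoter (build GRCm38.p6, 250 bases before the start and 50 from it on). The peak itself need not cover all of the printed bases. They are the 3 such Nduf and 3 such Mrp genes with the highest −log10 q. Ndufs3, the core subunit without a gene-end peak, is added, and Ndufs6, whose gene-end peak is shared with Mrpl36, was added after its values were seen. Each is written 5′ to 3′ on the strand of the gene. Capitals mark matches on either strand to the NRF1 motif (with 1 free base), CCGGAAG (ETS), GCCATNTT (YY1) and AGGTGT (the T-box core).
Ndufb6, chr4:40279372-40279671, minus strand: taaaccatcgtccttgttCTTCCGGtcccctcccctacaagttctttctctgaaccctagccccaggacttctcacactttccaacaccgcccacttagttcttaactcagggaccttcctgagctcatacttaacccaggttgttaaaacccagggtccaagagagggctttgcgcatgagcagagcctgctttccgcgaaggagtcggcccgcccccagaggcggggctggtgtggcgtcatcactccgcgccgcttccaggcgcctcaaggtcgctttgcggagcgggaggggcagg
Ndufb5, chr3:32736813-32737112, plus strand: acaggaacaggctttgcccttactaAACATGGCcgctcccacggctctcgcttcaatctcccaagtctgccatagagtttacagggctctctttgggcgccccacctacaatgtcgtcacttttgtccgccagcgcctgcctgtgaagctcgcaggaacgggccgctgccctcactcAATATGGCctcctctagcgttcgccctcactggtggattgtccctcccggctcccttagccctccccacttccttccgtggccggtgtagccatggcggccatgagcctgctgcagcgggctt
Ndufs7, chr10:80249199-80249498, plus strand: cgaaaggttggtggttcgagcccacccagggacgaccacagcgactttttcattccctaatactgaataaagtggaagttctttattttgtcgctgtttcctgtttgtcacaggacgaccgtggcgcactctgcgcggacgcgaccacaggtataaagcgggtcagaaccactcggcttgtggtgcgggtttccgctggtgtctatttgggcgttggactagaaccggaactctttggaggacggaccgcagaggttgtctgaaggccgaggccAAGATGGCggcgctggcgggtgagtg
Ndufs6, chr13:73328433-73328732, minus strand: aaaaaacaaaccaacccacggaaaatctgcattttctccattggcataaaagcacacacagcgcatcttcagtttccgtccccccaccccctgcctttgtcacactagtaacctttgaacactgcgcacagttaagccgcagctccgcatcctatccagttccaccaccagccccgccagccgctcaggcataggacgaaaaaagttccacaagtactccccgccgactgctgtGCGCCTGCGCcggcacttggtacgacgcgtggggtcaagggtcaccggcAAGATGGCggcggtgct
Ndufs3, chr2:90904672-90904971, minus strand: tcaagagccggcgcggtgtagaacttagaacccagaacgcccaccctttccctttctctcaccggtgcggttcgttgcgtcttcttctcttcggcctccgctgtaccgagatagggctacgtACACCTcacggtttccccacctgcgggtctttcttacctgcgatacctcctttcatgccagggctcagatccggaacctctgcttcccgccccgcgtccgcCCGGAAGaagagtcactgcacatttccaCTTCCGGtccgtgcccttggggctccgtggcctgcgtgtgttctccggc
Mrpl34, chr8:71464676-71464975, plus strand: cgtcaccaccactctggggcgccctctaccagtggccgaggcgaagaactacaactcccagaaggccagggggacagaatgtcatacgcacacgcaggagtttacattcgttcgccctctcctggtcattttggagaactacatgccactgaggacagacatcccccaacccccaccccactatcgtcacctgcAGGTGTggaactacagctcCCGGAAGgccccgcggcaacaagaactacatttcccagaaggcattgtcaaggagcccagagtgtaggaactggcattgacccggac
Mrps16, chr14:20393585-20393884, minus strand: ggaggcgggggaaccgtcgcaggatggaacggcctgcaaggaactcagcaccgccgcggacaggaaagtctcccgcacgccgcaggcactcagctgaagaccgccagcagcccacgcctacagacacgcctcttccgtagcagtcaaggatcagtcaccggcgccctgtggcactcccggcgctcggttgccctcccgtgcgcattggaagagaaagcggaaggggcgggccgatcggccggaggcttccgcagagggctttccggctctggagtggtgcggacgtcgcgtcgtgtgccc
Mrpl17, chr7:105811038-105811337, minus strand: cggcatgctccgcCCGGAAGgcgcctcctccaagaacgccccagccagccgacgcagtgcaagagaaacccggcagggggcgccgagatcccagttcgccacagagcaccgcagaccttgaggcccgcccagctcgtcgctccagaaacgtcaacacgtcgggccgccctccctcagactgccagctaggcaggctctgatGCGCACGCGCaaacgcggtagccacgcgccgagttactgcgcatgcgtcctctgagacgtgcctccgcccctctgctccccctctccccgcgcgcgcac

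The marked letters differed from promoter to promoter, and positions below count the start base as 0. Mrpl34 held the T-box core from −56 to −51 and the ETS letters from −37 to −31, with its summit at −236. Mrpl17 held the NRF1 letters from −49 to −40 and ETS letters from −237 to −231, with its summit at −2. These ETS letters lay outside the called peak. Mrps16 held none of the 4. Ndufb5 held the YY1 letters in 2 places, Ndufs7 from 24 to 31, and Ndufs6 from 33 to 40 beside NRF1 letters from −16 to −7. Ndufb6 held ETS letters from −232 to −226, also outside the called peak, with its summit at −9. Ndufs3, with no peak, held ETS letters in 2 places and the T-box core from −128 to −123. A match describes letters in a window, not a bound site.

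The core subunits described here had peaks of moderate or low fold. Ndufv1, which binds NADH and the flavin, had the highest (9.78-fold, −log10 q 20.4, chromosome 19 from 4012530 to 4012828), 96 bp after the start. Ndufs7, which carries the last iron-sulphur cluster before ubiquinone, had 6.27-fold (−log10 q 7.94), with the summit at −33 from the nearest listed start and 311 bp from the first annotated base. Ndufs1, the largest core subunit, had 2 peaks of 5.65 and 5.07-fold, 651 and 223 bp from its end of higher coordinate, and both lay within 1 kb of an end of Eef1b2, a translation elongation factor gene. Ndufs8, an iron-sulphur subunit, had 4.24-fold (−log10 q 3.84), 149 bp after its start, with an end of Aldh3b1 within 1 kb. Ndufv2, an iron-sulphur subunit of the NADH-binding module, had 3.17-fold (−log10 q 2.15) at −16 bp. Of these, Ndufs8 and Ndufv2 were under 5-fold, and none was strong. For Ndufs1 the promoter table held no entry, so its strand is not given.

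Among the supernumerary subunits the folds below Ndufb6 were 7.71 or lower. Ndufb1, of the membrane arm, had 7.71-fold (−log10 q 11.4) 80 bp after the start and a second peak of 2.73-fold, the lowest of all member peaks, 355 bp before it. Both were within 1 kb of the start of Cpsf2, a polyadenylation factor gene. Ndufb11, on chromosome X, had 6.19-fold (−log10 q 8.93) 290 bp after the start, shared with the start of Rbm10, a splicing regulator gene. Ndufs4 and Ndufs6, accessory subunits near the NADH-binding module that are mutated in Leigh syndrome, had 5.18-fold (49 bp after the start) and 6.17-fold (33 bp before it). The other 8 (Ndufa1, Ndufa2, Ndufa6, Ndufa10, Ndufa13, Ndufb2, Ndufb3 and Ndufb5) ran from 3.19-fold at Ndufa13 to 6.09-fold at Ndufb5. Ndufaf6, an assembly factor, had a peak at each annotated end, 9.42-fold (−log10 q 14.6) at the end of lower coordinate and 4.88-fold at the other. The promoter table held no entry, and so no strand, for Ndufaf6 or Ndufa2.

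Of the mitoribosomal genes after the strong peaks, Mrpl54, Mrpl23 and Mrpl52 stood highest. Mrpl54 had 9.74-fold (−log10 q 17.1) 62 bp from its end of higher coordinate, with no strand in the promoter table, and within 1 kb of the start of Apba3. Mrpl23 had 9.21-fold 160 bp after a listed start and 4.74-fold at its other end. Mrpl52 had 8.23-fold (−log10 q 13.2) 25 bp before the start and 4.63-fold at its far end. Mrps18b and Mrps18a, 2 of the 3 mammalian paralogues of one bacterial ribosomal protein, had 7.61-fold (−log10 q 12.1), shared with the start of Ppp1r10, and 6.70-fold (−log10 q 11.8). The third paralogue, Mrps18c, had 4.88-fold, shared with the start of Helq, a helicase gene. All 3 paralogues thus had a gene-end peak. The other Mrp peaks ran from 3.41-fold at Mrps15 to 6.39-fold at Mrpl14. Mrpl12, whose protein also binds the mitochondrial RNA polymerase, had 6.09-fold 92 bp before its start, with an end of Hgs within 1 kb. Mrps36, which carries a ribosomal name but is now placed in the 2-oxoglutarate dehydrogenase complex, had 3.91-fold.

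On 2 occasions 1 peak lay at the ends of both an Nduf and an Mrp gene whose annotated starts are back to back. Ndufb5 and Mrpl47 start 302 bp apart on opposite strands of chromosome 3, and a peak of 6.09-fold (−log10 q 8.39, from 32736776 to 32737080) had its summit 141 bp from the first and 161 bp from the second. Ndufs6 and Mrpl36 start 21 bp apart on chromosome 13, and a peak of 6.17-fold (−log10 q 7.09, from 73328387 to 73328598) had its summit 33 and 12 bp away. The promoter table places a listed start of Mrpl36 further inside the gene. In both cases a complex I gene and a mitoribosome gene count the same peak, so the 59 gene and peak pairs of the members rest on 57 peaks.

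Sharing a peak with another gene was common among the members. Another protein-coding gene end lay within 1 kb of an end of 75 of the 127 members, 31 of 49 Nduf (63.3%) and 44 of 78 Mrp genes (56.4%), against 25.1% of all protein-coding genes. Of the 59 pairs, 28 (47.5%) had a summit that was also within 1 kb of another gene's end, against 26.1% of the 5750 pairs of all genes. Where the table gave the strand of both genes, the summit was at the start of both in 20 of 24 pairs. A peak between an Nduf and an Mrp gene is counted once for each gene here, and the same share over all genes is not given. Partners with the summit at both starts included Hira, a histone chaperone gene (with Mrpl40), Ncapd2, a condensin gene (with Mrpl51), and Ptcd2 (with Mrps27). Members with a close neighbour had a gene-end peak in 32 of 75 cases (42.7%) and members without one in 20 of 52 (38.5%). For the other protein-coding genes the shares were 33.9 and 18.7%. Among Mrp genes, those without a neighbour had a peak in 14 of 34 cases and those with one in 17 of 44. Among Nduf genes the counts were 6 of 18 and 15 of 31, so without neighbours the Nduf share was below the Mrp share.

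The peaks sat at the starts of the genes rather than at their last bases. With the strand given for 50 of the 59 pairs, 43 (86.0%) were at the start, against 90.3% for all genes. All 18 Nduf pairs with a strand were at the start, while of 32 Mrp pairs 25 were at the start and 7 at the last base (Mrps30, Mrpl58 in 2 peaks, Mrpl23, Mrpl52, Mrpl20 and Mrpl2). The peak near the last base of Mrpl2 was also at the start of Cul7, a ubiquitin ligase gene. Of the 43 summits at starts, 33 (76.7%) were within 250 bp of a listed start (65.5% for all genes), and the median distance was −33 bp, against −44 bp for all genes. Upstream and downstream summits were 27 and 16.

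**Figure D3:**
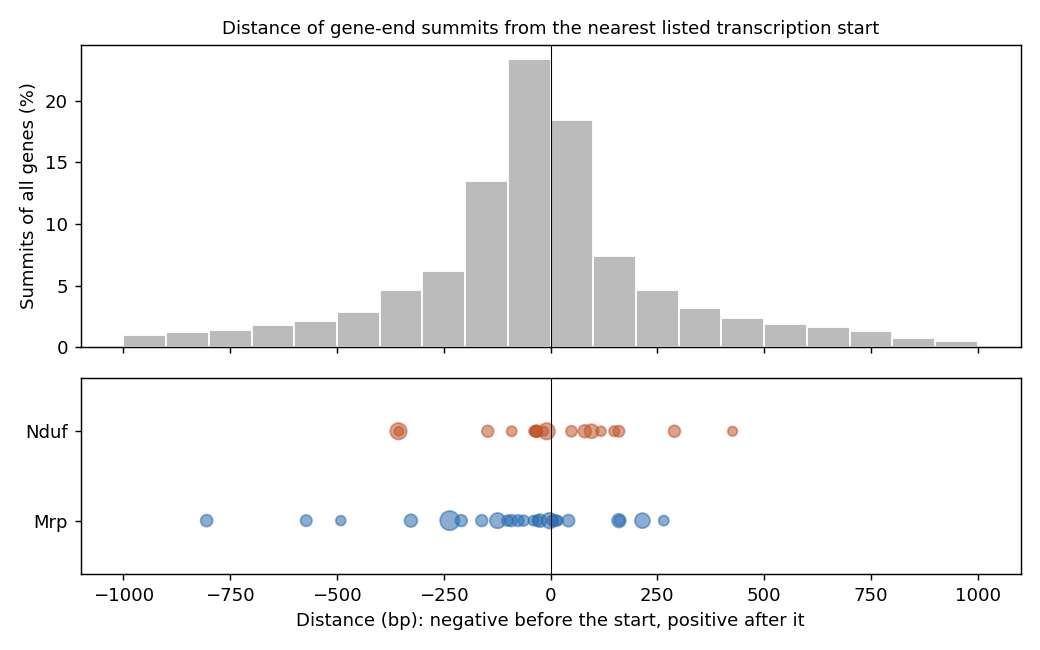
Distance in bp (x axis, negative before the start) from gene-end summits to the nearest listed transcription start. Grey bars give the percentage of summits of all genes per 100 bp, and points give the Nduf and Mrp summits, with area growing with fold; 33 of the 43 member summits lie within 250 bp of a start, and the Mrpl36 summit, at −2494 from its listed start, is outside the plot.

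No member promoter was in the class poorest in CpG, and the gap between members and other genes differed from class to class. CpG dinucleotides were counted in the 300-base promoters of 111 members and of 17274 protein-coding genes, which are 81.8% of the 21120 on the 19 chromosomes of the promoter table. The members' median was 21 CpG, against 14 for all. In the lowest class, up to 4 CpG, stood 4900 of all genes, of which 3.35% had a gene-end peak, and 0 members. With 15 to 24 CpG, 19 of 54 members had a peak (35.2%), against 32.1% of other genes. With 25 or more, 15 of 34 had one (44.1%), against 42.6%. In that class the Nduf share, 5 of 14 (35.7%), was below that of other genes. The Mrp share, 10 of 20 (50%), was above it, and both exact intervals include 42.6%. With 5 to 14 CpG, 11 of 23 members had a peak (47.8%, exact 95% interval 26.8 to 69.4%), against 15.3% of other genes. Those 11 were Mrpl11, Mrpl16, Mrpl20, Mrpl34, Mrpl36, Mrps36, Ndufa4, Ndufb2, Ndufb11, Ndufs4 and Ndufs8. Peaks at either gene end were counted, for members and other genes alike, so not every peak was at the promoter whose CpG were counted. The Mrpl20 peak was at its last base, 5940 bp from the start, and the Mrpl36 summit was at −2494 from its listed start. The share with a peak was higher in each higher CpG class over all genes but not over the members, and no test was made of this. The part of CpG content in the members' share was not tested beyond these classes, and expression of the genes was not measured here.

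**Figure D4:**
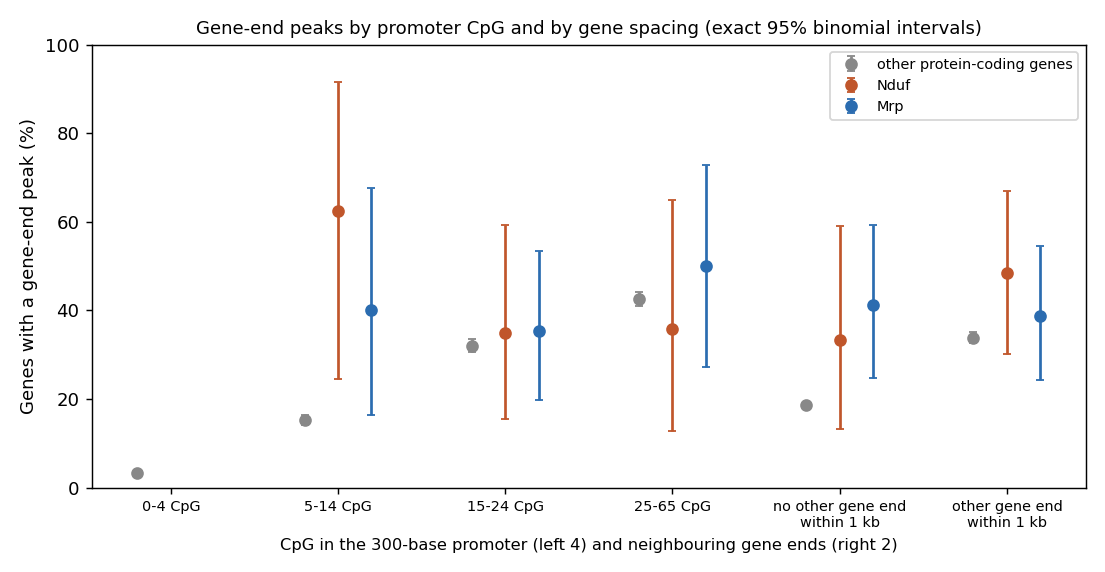
Percentage of genes with a gene-end peak (y axis) by CpG count in the 300-base promoter (4 classes on the left) and by whether another gene end lies within 1 kb (2 classes on the right), for other protein-coding genes (grey), Nduf and Mrp genes, with exact 95% binomial intervals. No member falls in the lowest CpG class, and the 3 groups lie close together from 15 to 24 CpG. At 25 or more CpG, Nduf (35.7%, 5 of 14) lies below the other genes (42.6%) and Mrp (50%, 10 of 20) above them. Members exceed the other genes most at 5 to 14 CpG (Nduf 62.5%, 5 of 8, and Mrp 40%, 6 of 15, against 15.3%).

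The promoters of both member groups held the YY1 and NRF1 letters more often than all promoters, and those of the Mrp genes also the ETS letters. The intervals for the ETS letters in Nduf promoters (5.43 to 28.5%) and for the T-box core in members included the share of all promoters. Letters were searched on both strands in the 300 bases, and the promoters of head-to-head genes overlap. The YY1 letters GCCATNTT stood in 34 of 111 member promoters (30.6%), against 6.71% of all 17274, and the longer YY1 motif, which contains them in reverse complement, in 10 (9.01%, against 0.978%). The NRF1 motif stood in 22 (19.8%, against 6.74%). The ETS letters CCGGAAG stood in 24 of 69 Mrp promoters (34.8%) and 6 of 42 Nduf promoters (14.3%), against 12.1% of all. The ETS letters, the NRF1 letters and the longer YY1 motif contain CpG, and GCCATNTT does not. Among all promoters with 25 or more CpG, 19.7% held the ETS, 15.9% the NRF1 and 8.07% the YY1 letters GCCATNTT, and 1.78% the longer YY1 motif. In the lowest CpG class, in which no member stood, these shares were 0.878, 0, 4.22 and 0%. The shares of all promoters given above include that class. The exact interval of the members' NRF1 share, 12.9 to 28.5%, includes the 15.9%. The T-box core AGGTGT stood in 14 member promoters (12.6%, exact 95% interval 7.07 to 20.3%, against 13.0% of all). Over all promoters its share was lower in each higher CpG class (17.1, 15.6, 11.3 and 7.41%), and the 13.0% includes the lowest class, in which no member stood. The longer T-box letters GGTGTGA, which share GGTGT with the core, stood in 0 of 111, against 3.67% of all promoters. A count of 0 here allows a share of up to 2.70% by the limit of 3 counts and up to 3.27% by the exact interval. Over all promoters the share with these longer letters was 4.33, 4.35, 3.02 and 2.88% from the lowest to the highest CpG class. The 3.67% thus also includes the lowest class, and whether members differ from promoters of like CpG was not tested.

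Among the members, the shares of promoters with these letters had overlapping exact intervals with and without a peak, and were not tested. The split counts a peak at either gene end, so the promoter searched is not always the place of the peak. Mrpl2, Mrpl20 and Mrpl58 had gene-end peaks only at their last base, and the Mrpl36 summit was at −2494 from its listed start. The T-box core stood in 5 of 45 member promoters with a gene-end peak (11.1%; Mrpl16, Mrpl20, Mrpl34, Mrpl45 and Ndufa1) and in 9 of 66 without one (13.6%). The YY1 letters stood in 15 of 45 and 19 of 66 (33.3 and 28.8%), the ETS letters in 12 and 18 (26.7 and 27.3%), and the NRF1 letters in 7 and 15 (15.6 and 22.7%). The palindromic form of the NRF1 motif stood in 0 of 45 and 6 of 66. Of all promoters with and without a gene-end peak, 10.9 and 13.6% held the T-box core. For the YY1 letters these shares were 10.2 and 5.69%, for the ETS letters 18.8 and 10.1%, and for the NRF1 letters 10.3 and 5.69%. For the palindromic NRF1 form they were 2.15 and 1.11%. Over all genes with the T-box core, 18.9% had a gene-end peak, against 23.2% of those without it. These 2 shares were not split by CpG class, although over the 4 classes, from low to high CpG, the share with the T-box core fell from 17.1 to 7.41% and the share with a gene-end peak rose from 3.35 to 42.6%. The SP/KLF letters GGGCGG stood in 49.5% of member promoters (46.9% of all), CACGTG in 6.31% (8.01%) and CCAAT in 36.9% (39.6%).

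**Figure D5:**
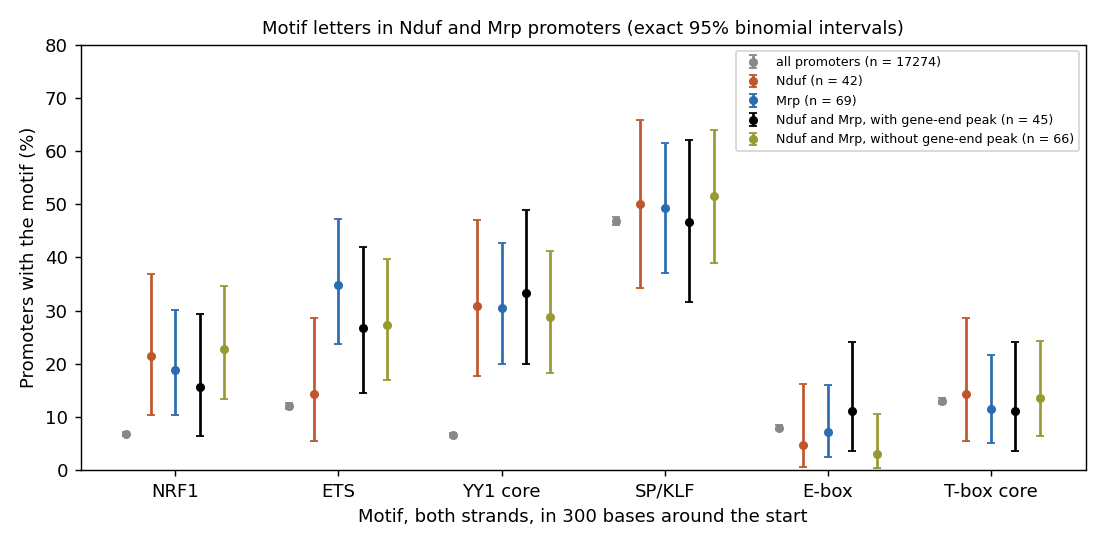
Percentage of 300-base promoters (y axis) holding each motif (x axis) on either strand, for all protein-coding promoters, Nduf, Mrp, and members with and without a gene-end peak, with exact 95% binomial intervals. The NRF1 and YY1 letters are more frequent in both member groups than in all promoters, and the ETS letters in Mrp promoters. The T-box core is at 14.3% of Nduf and 11.6% of Mrp promoters against 13.0% of all.

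Of the 75 members without a gene-end peak, most had their nearest summit 10 kb or more from a gene end, at a median of 25614 bp. For the 16676 other protein-coding genes without a gene-end peak the median was 39463 bp. Between 2 and 10 kb were 16 of the 75 (21.3%, against 17.3% of those other genes), between 10 and 100 kb 49 (65.3%, against 8172 of the 16676) and farther than 100 kb 8 (10.7%, against 29.3%). The farthest was Mrpl32 at 321561 bp. At the 1 kb limit, the members just inside were Ndufa13 at 964 bp (3.19-fold) and Mrpl48 at 894 bp. Just outside were Mrpl18 at 1258 bp (4.89-fold, chromosome 17 from 12916345 to 12916710) and Mrpl4 at 1570 bp (6.19-fold, chromosome 9 from 21002659 to 21002901), both inside the gene. Over all protein-coding genes the median distance to a summit was 21278 bp, against 4518 bp for Nduf and 7609 bp for Mrp genes.

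Inside the gene and over 1 kb from its ends, 11 of the 127 members had a peak (8.66%, exact 95% interval 4.403 to 14.97%), against 19.6% of all protein-coding genes. The members are shorter, with a median gene length of 7690 bp against 17329 bp. The highest was in Ndufaf2, a complex I assembly factor gene of 106064 bp without a gene-end peak. It had 3 such peaks, up to 17.9-fold (−log10 q 52.6, rank 1469 of the list) on chromosome 13 from 108063324 to 108063830, 10957 bp from the nearer end. In Ndufs4, a gene of 100300 bp, 1 peak of 9.42-fold lay 32292 bp from the nearer end. Mrpl23 and Mrps28 had 2 each, up to 6.27 and 4.71-fold. The others (Mrpl4, Mrpl14, Mrpl18, Mrpl48, Mrps18a, Ndufa4l2 and Ndufv2) had 1 each, up to 8.19-fold in Mrps18a. With these, of the 8 Nduf assembly factors, Ndufaf6 and Ndufaf2 had any peak at an end or inside the gene.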

How the data were processed

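The data were 1 headerless peak list in MACS2's layout. The submitters' processing notes name Bowtie2, SAMtools, MACS2 and mm10. Their versions, and whether libraries were merged or the input served as control, are not given in the sources used. For each peak the authors deposited a fold enrichment (a ratio), a −log10 q and a derived score, ranked here within the list only, and its position.

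Gene ends came from a RefSeq table of GRCm38.p6, strand, starts and sequence from a RefSeq promoter table (111 of the 127 members). Of 90 symbols in related lists, 89 were matched, 1 of them by synonym. Shares carry exact (Clopper-Pearson) 95% binomial intervals, differences of shares Newcombe intervals, and median folds binomial order-statistic intervals. No test was run, since the list has no value per library and genes are not replicates. The gene-end rule and motif search were tested on simulated data. Members and lists were chosen with earlier results of these data known. Values are given in full for the 8 Nduf and 12 Mrp genes with the highest −log10 q, members with a strong peak, core subunits, and members with a summit 1 to 2 kb away. Values of 1 member are not reported here, though it is in all counts. Promoters were to be printed for 2 core subunits without a peak, but 1 existed. Python 3.11.15, pandas 2.3.3 and scipy 1.17.1 were used.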

Additional observations from a re-analysis of the deposited data

How the results depend on the processing

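Both member groups stayed above the share of all protein-coding genes under each of the 10 alternatives, but the exact interval of the Nduf share included the share of all genes under 3 of them: 5.94 to 27.2% with the upper 14191 peaks, 0.498 to 14.0% with the 5000 highest and 13.3 to 59.0% without neighbours. No alternative split the genes by CpG class, and with 25 or more CpG the Nduf share was 35.7%, against 42.6% of other genes. The sign of the difference between the groups did not hold. Nduf minus Mrp (3.11 points) turned to −4.95 points with the upper 14191 peaks, −4.89 with the 5000 highest and −7.84 among genes without a neighbouring gene end within 1 kb. The cause was not tested, and each interval of the difference included 0. With the upper 14191 peaks, the 5000 highest and the peaks of 5-fold or more, the Nduf share was 14.3, 4.08 and 28.6%, the Mrp share 19.2, 8.97 and 26.9%, and the share of all genes 10.2, 2.07 and 14.9%, since fewer peaks were counted. The median fold of member peaks was then 9.58, 12.7 and 6.54, as low peaks were left out. The share of all genes was 19.4, 25.9 and 31.9% with windows of 500 bp, 2 kb and 5 kb, 23.2% with any base of the peak, 23.2% with listed starts and 18.7% without neighbours. No library could be left out and no paired analysis was possible because the deposited list has no value per library. Without depth, a gene with no peak cannot be told from one with a peak too weak to be called.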
